A study of Mus musculus with 60 samples.

Results

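The last interval of the 2i time course in Eed knockout cells, 96 h against 48 h, was represented by 6 of the 60 RNA-seq libraries of the series, 3 at each time, chosen by their labels. The cells were mouse embryonic stem cells (mESCs) of the line 1A in which Eed had been knocked out with Cas9. They were kept on gelatin in medium with serum and leukaemia inhibitory factor (LIF), and 2i was the addition of 2 inhibitors, CHIR99021 at 3 µM against the kinase GSK3 and PD0325901 at 1 µM against the kinase MEK. Both times therefore had the knockout, the serum, LIF and both inhibitors in common, and differed in the hours of 2i. Cells were passaged every 48 h as a routine. Passages, time in culture and day of collection may have differed between the times too. They cannot be told apart from the hours of 2i. The same interval was also taken from 1A cells with an Ezh2 knockout, also made with Cas9, and from 1A wild-type cells, with 3 libraries at 96 h and 3 at 48 h in each line. Earlier libraries of these lines, at 0 h (no 2i), 12 h and 24 h, serve here to describe the course, and the second wild-type line of the series, V19, entered the shared estimate of the spread. The labels number the libraries as biological replicates 1 to 3 without saying whether they came from separate cultures, so p-values measure the spread between these libraries, which may be technical. Whether a knockout line was 1 clone is not given in the sources used here.

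Eed is the subunit of Polycomb repressive complex 2 (PRC2) that binds trimethylated lysine 27 of histone H3 and that the complex needs for its activity, while Ezh2 is its main catalytic subunit, with Ezh1 as a second one. PRC2 keeps many developmental regulators silent in mESCs, in large part genes whose promoters also carry active marks and are therefore called bivalent. The 2 inhibitors replace signals from serum: blocking MEK removes ERK signalling, which pushes mESCs towards differentiation, and blocking GSK3 stabilizes β-catenin, the effector of Wnt signalling, which relieves repression of pluripotency genes. Cells moved into 2i pass over days to a more uniform state close to the inner cell mass of the blastocyst, called naive or ground-state pluripotency, and lose much of their DNA methylation.

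The 96 h libraries held 6072995, 6528399 and 6777381 assigned reads and the 48 h libraries 5176436, 5988061 and 3990975. Over all 60 libraries totals ran from 2561169, in replicate 3 of 1A wild type at 48 h, to 11065948 (median 6055990). Levels are given as CPM, the counts of a gene relative to its library's total, scaled with TMM factors, which compare a gene between libraries but not different genes with each other. Differences are log2 fold changes of 96 h over 48 h with their standard error, and a gene is said to have risen, fallen or changed where edgeR's quasi-likelihood test gave a Benjamini-Hochberg adjusted p under 0.05 over the 15083 genes tested.

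The targeted gene was low at both times. Eed (chromosome 7, 89603862 to 89630184, GRCm39) had 18.8, 18.5 and 19.6 CPM at 96 h and 16.2, 15.3 and 16.3 CPM at 48 h in Eed knockout libraries, against 313, 314 and 346 CPM at 96 h and 308, 302 and 344 CPM at 48 h in 1A wild type. The knockout libraries thus stayed far below every wild-type library, and the 96 h and 48 h values of the knockout differed by 0.26 ± 0.14 log2 units (edgeR adjusted p = 0.161). Ezh2 had 162, 169 and 154 CPM at 96 h and 154, 159.7 and 167 CPM at 48 h in Eed knockout cells, with overlapping values (adjusted p = 0.9). Suz12, the third core subunit, had 222, 223 and 212 CPM at 96 h and 236, 262 and 273 CPM at 48 h, with each 96 h library below each 48 h library (-0.23 ± 0.11, adjusted p = 0.099). That difference was called where the 2 groups were fitted alone (adjusted p = 0.0215). The libraries bore the marks of the labelled cell type: Pou5f1, the core pluripotency factor, stood at 944 to 1011 CPM at 96 h and 609 to 731 CPM at 48 h. Ptprc (CD45) and the adult haemoglobin gene Hbb-bt had no count at either time, and the blood progenitor genes Cd34 and Tal1 stayed under 2.4 CPM. Gata1, a further blood gene, had 1.24 to 1.46 CPM at 96 h and 2.01 to 3.03 CPM at 48 h (-0.97 ± 0.34, edgeR adjusted p = 0.0211).

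Over the whole transcriptome, 5325 of the 15083 genes tested changed between 48 h and 96 h in Eed knockout cells, which is 35.3% of them, with 2544 higher at 96 h (16.9%) and 2781 lower (18.4%). Changes of at least 2-fold were fewer, with 536 genes higher (3.55%) and 485 lower (3.22%), and the median over all genes tested was 0.00309 log2 units. The 3 values at 96 h lay wholly above the 3 values at 48 h for 2465 of the genes that rose, and wholly below them for 2669 of the genes that fell. Over all genes tested, called or not, the values lay apart in this way for 24.5% upwards and 24.4% downwards. The split of calls was not independent of the scaling: 47.8% of the calls were rises in these counts, against 66.6% in the authors' deposited values after removal of unwanted variation (RUV), where the median of all genes was 0.0947 and 1329 genes fell.

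The genes described first had the largest called changes among those with a mean of at least 5 CPM at one of the times and no overlap between times, so that their separation follows from how they were chosen. The largest rise among them belonged to Ctsll3, a gene of the cathepsin L family, with 522 reads at 96 h and 2 reads at 48 h summed over the 3 libraries. Scaled to depth that is a ratio of 205, with a 95% counting interval of 56.5 to 1700, and the adjusted p was 1.4e-09. Entpd1, the cell-surface enzyme CD39 that degrades extracellular ATP, had 13.4, 16.9 and 13.4 CPM at 96 h and 1.09, 0.956 and 0.232 CPM at 48 h (4.14 ± 0.33, adjusted p = 3.93e-13). Both genes were near absent at 48 h and clearly present in every 96 h library. Etv4, an ETS transcription factor that is a target of FGF and ERK signalling (chromosome 11, 101660573 to 101677963), had 42, 41.4 and 42.7 CPM at 96 h and 7.29, 4.30 and 2.09 CPM at 48 h. Its change was 3.15 ± 0.18 (adjusted p = 2.49e-19). Krt16, a keratin of stratified epithelium, had 17.7, 17.6 and 14.6 CPM at 96 h and 1.82, 2.39 and 3.02 CPM at 48 h (2.80 ± 0.28, adjusted p = 1.32e-11).

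The other 6 of these 10 rises were smaller. Myo1f, an unconventional myosin, changed by 2.63 log2 units and reached 21.5, 25.2 and 25.2 CPM at 96 h, against 4.19, 3.83 and 3.48 CPM at 48 h. Nlrp4c, an oocyte-type member of the NLRP family, changed by 2.29 and Tlx2, a homeobox gene, by 2.21. Smtnl1, a smoothelin-like muscle protein gene, changed by 2.26 and S100a14, a calcium-binding protein gene of epithelia, by 2.16. The antisense transcript Rbfaos changed by 2.15. It shares 648 bases with Rbfa on the opposite strand, and since the strand setting of the counting is not given in the sources used here, reads of the pair cannot be told apart. Adjusted p-values of these 6 genes ran from 1.75e-17 to 2.73e-05.

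Among the largest falls, chosen in the same way, were genes of the placenta and of the X chromosome. Gcm1, the transcription factor that drives syncytiotrophoblast formation in the placenta (chromosome 9, 77959240 to 77972906), had 1.87, 2.48 and 1.96 CPM at 96 h and 19, 21.2 and 23.2 CPM at 48 h. This was a fall of 9.92-fold (-3.31 ± 0.21, adjusted p = 3.67e-18). Cyp26a1, the enzyme that degrades retinoic acid, had 2.95, 3.65 and 3.64 CPM at 96 h and 21.5, 25.2 and 22.8 CPM at 48 h (-2.75 ± 0.19, adjusted p = 6.29e-17). S100g, the calcium-binding protein calbindin-D9k, had 1.40, 1.31 and 1.96 CPM at 96 h and 16.8, 28.1 and 25.3 CPM at 48 h (-3.88 ± 0.34, adjusted p = 3.93e-13). S100g lies on the X chromosome, as do Usp51, a deubiquitinase of histone H2A (-3.01), Dmrtc1b (-2.68), Hmgn5, a nucleosome-binding protein (-2.56), and Ldoc1 (-2.52). In all, 5 of these 10 falls and 0 of these 10 rises were X-linked. The other three were Spock1, a secreted proteoglycan (-2.93), Rflna, a regulator of filamin (-2.74), and Shisal1 (-2.59).

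**Figure D1:**
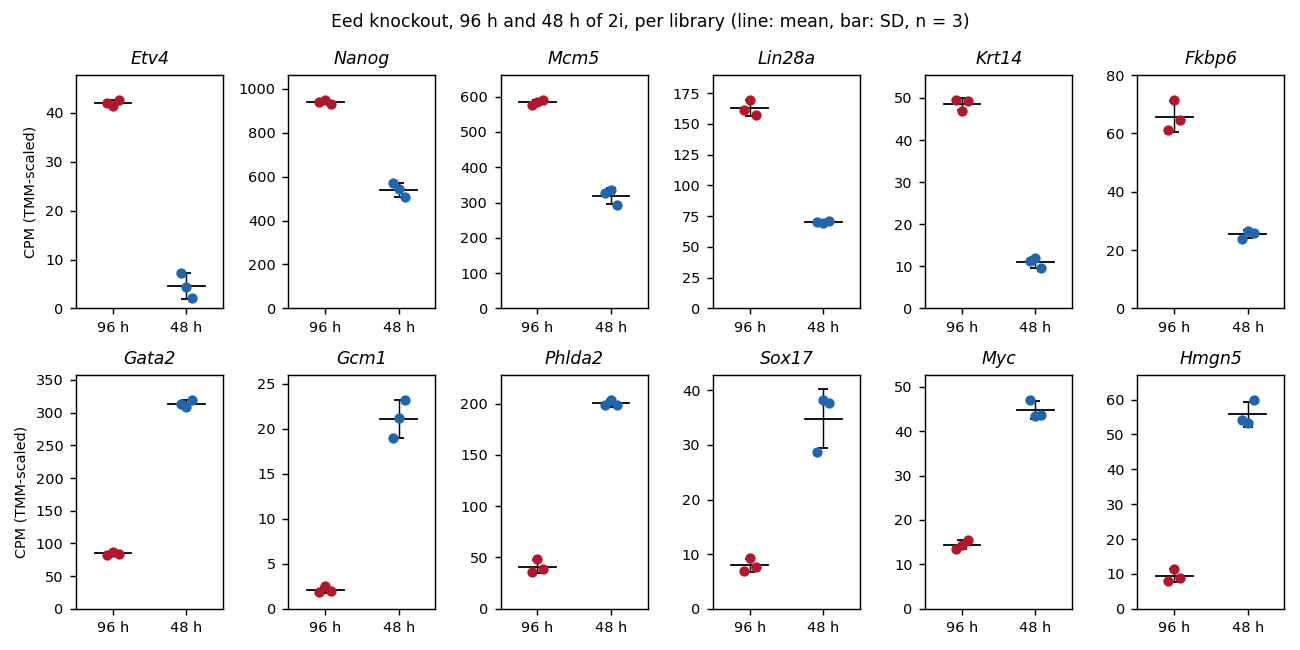
CPM of each library (points) with the mean (line) and SD (bar, n = 3) of 12 genes in Eed knockout cells, with 96 h of 2i left of 48 h. The upper 6 genes rose and the lower 6 fell. Etv4 stands at 41.4 to 42.7 CPM at 96 h and 2.09 to 7.29 CPM at 48 h, and Gcm1 at 1.87 to 2.48 CPM at 96 h and 19 to 23.2 CPM at 48 h.

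Genes of pluripotency rose as a group. Of 20 genes of the naive state, 14 rose, 1 fell and 5 were not called, with a median of 0.353 log2 units. Nanog, which stabilizes the naive state (chromosome 6, 122684448 to 122691592), had 937, 950.1 and 929.6 CPM at 96 h and 569, 542 and 507 CPM at 48 h (0.80 ± 0.08, adjusted p = 5.59e-11). Zfp42 (Rex1), a marker of naive cells, had 294, 285 and 284 CPM at 96 h and 183, 186 and 183 CPM at 48 h (0.64 ± 0.06, adjusted p = 4.66e-12). Each of these genes was higher in all 96 h libraries than in any 48 h library. Gbx2, a homeobox target of LIF signalling, had 20.7, 18.1 and 18.3 CPM at 96 h and 4.37, 4.62 and 5.57 CPM at 48 h, the largest change of the list at 1.98 ± 0.17 (adjusted p = 9.99e-14). Socs3, the feedback inhibitor of LIF signalling, changed by 0.77 ± 0.07 (adjusted p = 1.96e-12). Esrrb, an orphan nuclear receptor that is a main target of GSK3 inhibition, was singled out after its values were seen and changed by 0.86 ± 0.10 (adjusted p = 4.93e-10). The gene that fell was Dppa3 (Stella), and Klf4, Klf2, Tcl1, Tbx3 and Sox15 were not called.

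Of 11 genes shared by naive and later pluripotent states, 9 rose and 0 fell, with a median of 0.545. Lin28a, which binds the precursor of the miRNA let-7, had 162, 169.8 and 157 CPM at 96 h and 70.0, 69.3 and 71 CPM at 48 h (1.22 ± 0.09, adjusted p = 2.01e-15). It was more than 2-fold higher in each 96 h library than in any 48 h library. Utf1 (0.65) and Dppa2 (0.74) rose as well, with adjusted p-values of 1.66e-07 and 1.24e-06. Pou5f1 rose by 0.51 ± 0.10 and Sall4 by 0.55 ± 0.09, whereas Dppa5a had 662 to 723 CPM at 96 h and 641 to 952 CPM at 48 h and was not called. Among 20 tested genes of the formative or primed state, 6 rose and 5 fell. The rise of Dnmt3l, the cofactor of the de novo DNA methyltransferases, was 1.31 ± 0.12, with 399, 435 and 411 CPM at 96 h and 140.0, 193 and 168 CPM at 48 h (adjusted p = 3.93e-13). Pou3f1 (Oct6), an early primed factor, fell to 22.4, 17.9 and 21.4 CPM at 96 h, against 40.1, 50.7 and 58.3 CPM at 48 h (-1.26 ± 0.14, adjusted p = 4.45e-10). Etv5, a relative of Etv4, rose by 0.88 on the log2 scale. The primed marker Fgf5 did not pass the filter on low counts.

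Of 22 targets of ERK signalling tested, 10 rose and 5 fell, with PD0325901 present at both times. Those are 45.5% and 22.7%, against 16.9% and 18.4% of all genes tested. Over the same interval 11 of the 22 rose and 0 fell in 1A wild type, and likewise in Ezh2 knockout cells. The risers in Eed knockout cells included the ETS factors Etv4, Etv5 and Etv1, and Phlda1. The other risers were the feedback inhibitors Spry1, Spry2, Spry4, Spred1, Spred2 and Dusp6. Spry4, an inhibitor of receptor tyrosine kinase signalling, had 12, 10.8 and 10.9 CPM at 96 h and 3.28, 2.07 and 2.79 CPM at 48 h (2.06 ± 0.21, adjusted p = 5.75e-11). Spry2, of the same family, had 81.3, 89.8 and 88.6 CPM at 96 h and 45, 39.8 and 44.8 CPM at 48 h (1.01 ± 0.07, adjusted p = 1.74e-15). The fallers were Myc, Fos, Dusp1, Dusp2 and Dusp5, of which 2 were called in the RUV values and 2 or 3 when any 1 library was left out. Myc, the growth-promoting transcription factor (chromosome 15, 61857190 to 61862210), had 13.4, 14.4 and 15.5 CPM at 96 h and 47, 43.4 and 43.6 CPM at 48 h. Its 96 h libraries were all far below the 48 h libraries, at -1.62 ± 0.11 (adjusted p = 2.6e-16). Its relatives Mycn and Mycl, named after their values were seen, had changes of 0.14 ± 0.09 and 0.30 ± 0.13 and were not called. Mycl was called higher in 5 of the other fits, with adjusted p-values of 0.0335 to 0.0478.

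Of 18 Wnt targets tested, 9 rose and 5 fell, at a median of 0.402. Their shares were 50% and 27.8%, against 16.9% and 18.4% of all genes tested. Ccnd1, encoding cyclin D1, had 124, 123 and 130.1 CPM at 96 h and 47.6, 48.5 and 51.1 CPM at 48 h (1.36 ± 0.10, adjusted p = 5.04e-16), and it overlaps LTO1 on the opposite strand over 818 bases. Feedback inhibitors of the pathway were found on both sides: Axin2, Notum and Apcdd1 rose, Dkk1 (-0.62) and Rnf43 (-0.93) fell, and Nkd1 was not called. Dkk1 and Rnf43 were named after their values were seen, and neither was called in the RUV values, where 2 genes of the list fell. Cdx1, a homeobox target of Wnt, had 34.5, 42.6 and 35.4 CPM at 96 h and 15.7, 16.3 and 11.8 CPM at 48 h (1.34 ± 0.14, adjusted p = 1.37e-10). In the other direction, Cdx2, its relative that specifies trophectoderm, had 37.9, 36.2 and 37.5 CPM at 96 h and 83.1, 82.6 and 73.1 CPM at 48 h (-1.10 ± 0.13, adjusted p = 4.03e-09). That fall was not called in the RUV values. Ascl2, an imprinted factor of trophoblast and intestinal stem cells, had 14.8, 17.4 and 16.7 CPM at 96 h and 43.7, 50.4 and 55.3 CPM at 48 h (-1.61 ± 0.16, adjusted p = 1.29e-11). The 2 homeobox relatives Cdx1 and Cdx2 thus moved in opposite directions, with no overlap between times in either.

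In the Nodal pathway, 5 of 9 tested genes rose and 2 fell. The ligand Nodal had 73.9, 90.1 and 85.7 CPM at 96 h and 47.8, 53.2 and 49 CPM at 48 h (0.73 ± 0.11, adjusted p = 8.72e-07), and the related ligand Gdf3 114, 121 and 124 CPM at 96 h and 55.8, 64.9 and 54.3 CPM at 48 h (1.03 ± 0.11, adjusted p = 1.32e-10). The feedback antagonist Lefty2 rose by 0.51 on the log2 scale, as did the coreceptor gene Tdgf1 and Lefty1. Follistatin (Fst), which binds activin, fell by 1.98-fold to 13.2, 13.1 and 14 CPM at 96 h, against 23.2, 29 and 27.9 CPM at 48 h (adjusted p = 3.35e-06). Of 10 targets and members of BMP signalling, 3 rose and 4 fell. Msx2, a homeobox target of BMP, fell by 1.80-fold, and Id4, an inhibitor of helix-loop-helix factors, changed by -0.78 ± 0.22, while the inhibitory Smad6 rose by 0.68 and the ligand Bmp4 by 0.72. Without replicate 2 at 48 h, the rise of Bmp4 was not called (adjusted p = 0.0582), and without replicate 3 at 48 h nor was the fall of Id4 (adjusted p = 0.126). Id1 and Id2 fell too. Among the RUV values 2 genes of the list fell, and Msx2 was not called (adjusted p = 0.1). Of 12 genes of LIF and Stat3 signalling, 6 rose and 1, Jak1, fell. With the RUV values 0 of these genes fell. The kinase gene Pim1 changed by 0.28 ± 0.07 (adjusted p = 0.00224, or 0.0544 with no filter on low counts) and the receptor gene Lifr by 0.45 ± 0.13 (adjusted p = 0.00405).

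Among 14 PRC2 subunits and accessory factors, 0 rose and 3 fell (21.4%), against 16.9% higher and 18.4% lower over all genes tested. Rbbp7, a histone-binding subunit shared with other chromatin complexes and encoded on the X chromosome, had 413, 406 and 376 CPM at 96 h and 677, 776 and 744 CPM at 48 h (-0.88 ± 0.08, adjusted p = 2.75e-13). Phf19, which recruits PRC2 to CpG islands, changed by -0.90 ± 0.20 (adjusted p = 0.000326) and Ezh1 by -0.34 ± 0.11 (adjusted p = 0.0169), the last not called in the RUV values nor without replicate 2 at 48 h (adjusted p = 0.0688). Of 21 subunits of the partner complex PRC1, 5 rose and 4 fell (23.8% and 19%), near those shares. Pcgf5, which defines a PRC1 variant, had 49.6, 48.4 and 45.4 CPM at 96 h and 101, 97.5 and 97.7 CPM at 48 h (-1.05 ± 0.10, adjusted p = 3.59e-12). The canonical subunits Pcgf2 (0.67) and Phc1 (0.67) rose, as did L3mbtl2 (0.45), Cbx2 and Pcgf1, while Phc2 and Phc3 were among those that fell. Only 1 gene of the PRC1 list fell in the RUV values.

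Of 12 enzymes and cofactors of DNA methylation, 5 rose and 2 fell, or 1 without replicate 1 at 48 h. Trim28, the corepressor of KRAB zinc-finger proteins, had 2326, 2540.5 and 2334 CPM at 96 h and 1332, 1588 and 1518 CPM at 48 h (0.70 ± 0.08, adjusted p = 1.62e-09). Zfp57, the zinc-finger protein that works with it at imprinted loci, had 285, 275 and 294 CPM at 96 h and 188, 177 and 189 CPM at 48 h (0.63 ± 0.07, adjusted p = 8.77e-11). Every 96 h library of both was above every 48 h library. Zfp57 shares 1788 bases with H2-M5 on the opposite strand, which averaged 84.5 CPM at 96 h and 43.9 CPM at 48 h, and reads of the shared bases cannot be told apart. Uhrf1 and Dnmt3b rose with Dnmt3l, and Dnmt3a fell. Tet3, which oxidizes methylcytosine, had 30.9, 24.2 and 29 CPM at 96 h and 72.4, 46.9 and 65 CPM at 48 h (-1.12 ± 0.15, adjusted p = 1.72e-08). Dnmt1, Tet1 and Tet2 were not called.

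Germline genes that are known to be kept silent by promoter DNA methylation moved both ways. Of 30 tested, 10 rose, 8 fell and 12 were not called, with a median of 0.0801, against shares of 16.9% higher and 18.4% lower over all genes. The promoters of some of them are shown because they carry what this group is known for, a CpG-rich start region, in several cases with the E-box CACGTG that E2f6, Mga and Max complexes use at germline genes. The sequences are those of RefSeq on GRCm38.p6, from 250 bases before to 50 bases after the gene's start. Capitals mark each CACGTG and each TCCCGC or its reverse complement GCGGGA, the E2F-type motif. The first 4 are germline genes, 2 of which rose and 2 of which fell, and the last 2 are genes of DNA replication that rose.
Fkbp6: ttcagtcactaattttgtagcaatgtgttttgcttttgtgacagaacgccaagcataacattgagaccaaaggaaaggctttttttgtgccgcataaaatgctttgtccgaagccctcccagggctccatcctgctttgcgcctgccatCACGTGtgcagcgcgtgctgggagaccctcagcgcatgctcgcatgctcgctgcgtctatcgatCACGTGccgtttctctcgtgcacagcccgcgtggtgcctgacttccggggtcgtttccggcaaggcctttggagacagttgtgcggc
Dazl: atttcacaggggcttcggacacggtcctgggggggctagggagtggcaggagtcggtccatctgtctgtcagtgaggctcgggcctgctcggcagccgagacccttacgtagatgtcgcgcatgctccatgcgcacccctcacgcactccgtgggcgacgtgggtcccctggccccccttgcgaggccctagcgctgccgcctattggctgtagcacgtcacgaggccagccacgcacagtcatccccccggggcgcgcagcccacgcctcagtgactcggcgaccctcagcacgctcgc
Sycp3: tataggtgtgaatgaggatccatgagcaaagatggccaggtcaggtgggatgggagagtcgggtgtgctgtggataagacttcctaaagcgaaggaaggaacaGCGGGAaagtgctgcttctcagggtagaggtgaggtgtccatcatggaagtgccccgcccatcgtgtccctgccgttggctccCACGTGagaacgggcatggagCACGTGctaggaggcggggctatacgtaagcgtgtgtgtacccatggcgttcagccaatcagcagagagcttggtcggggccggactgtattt
Sycp1: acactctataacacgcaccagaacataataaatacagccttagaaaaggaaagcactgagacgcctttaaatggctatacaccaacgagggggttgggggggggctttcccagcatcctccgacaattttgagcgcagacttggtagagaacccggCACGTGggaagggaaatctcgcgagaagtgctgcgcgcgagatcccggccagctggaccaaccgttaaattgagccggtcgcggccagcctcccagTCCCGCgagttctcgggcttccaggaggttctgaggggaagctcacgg
Mcm5: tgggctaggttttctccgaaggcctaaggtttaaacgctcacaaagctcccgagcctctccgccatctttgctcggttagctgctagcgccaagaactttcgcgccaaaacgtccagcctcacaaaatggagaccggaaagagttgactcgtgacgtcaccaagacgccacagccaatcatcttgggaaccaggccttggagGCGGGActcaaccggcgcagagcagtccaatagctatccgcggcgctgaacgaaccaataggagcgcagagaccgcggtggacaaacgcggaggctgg
Mcm3: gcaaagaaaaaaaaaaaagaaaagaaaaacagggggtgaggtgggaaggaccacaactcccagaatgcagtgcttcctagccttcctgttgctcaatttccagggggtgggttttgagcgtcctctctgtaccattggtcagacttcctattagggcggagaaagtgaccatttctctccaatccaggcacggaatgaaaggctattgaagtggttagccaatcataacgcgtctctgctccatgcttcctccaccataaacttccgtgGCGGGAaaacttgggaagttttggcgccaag

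These promoters lie at chr5:135349995-135350294 (minus strand), chr17:50293571-50293870 (minus), chr10:88459337-88459636 (plus), chr3:102936051-102936350 (minus), chr8:75109259-75109558 (plus) and chr1:20820263-20820562 (minus). They hold 21 CpG in Fkbp6, 28 in Dazl, 15 in Sycp3, 21 in Sycp1, 25 in Mcm5 and 8 in Mcm3, against a median of 7 over 27025 mouse promoters of the same length. CACGTG, which is its own reverse complement, was searched once and TCCCGC on both strands, and the 2 motifs can share at most 1 base. Of 27025 promoters, 7.24% held CACGTG and 20% held TCCCGC or GCGGGA. Among the 26 germline genes with a promoter in the table, 13 held CACGTG and 13 the E2F-type motif, with a median of 20 CpG. The E-box stood in 2 of 9 promoters of the genes that rose, 4 of 6 of those that fell and 7 of 11 of those not called. A match describes the letters in these windows and is no evidence of binding.

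Fkbp6, a cochaperone of the piRNA pathway whose promoter holds the E-box, had 61.1, 71.6 and 64.7 CPM at 96 h and 23.9, 26.5 and 26 CPM at 48 h (1.37 ± 0.10, adjusted p = 4.47e-15). Rpl10l, the testis copy of a ribosomal protein gene, had 127, 136 and 129.9 CPM at 96 h and 45.8, 51.8 and 48.3 CPM at 48 h (1.43 ± 0.13, adjusted p = 3.92e-13). In both, the lowest 96 h library was more than 2-fold above the highest 48 h library. Tuba3a and Tuba3b, near-identical testis tubulin genes between which reads may have been split, rose by 1.39 and 2.08. The remaining genes of the list that changed were chosen for naming after their values were seen. Dazl, an RNA-binding protein of germ cells, had 26.6, 40.1 and 28.1 CPM at 96 h and 18, 20.2 and 12.3 CPM at 48 h (0.88 ± 0.15, adjusted p = 8.05e-06). Sohlh2 rose by 1.00, Tex101 by 1.45 and Hormad1 by 0.98, with smaller rises of Piwil2 (0.47) and Syce1 (0.40).

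The germline genes that fell include parts of the synaptonemal complex, which pairs chromosomes in meiosis. Sycp1, its transverse filament, had 8.09, 5.83 and 6.58 CPM at 96 h and 13.9, 13.7 and 14.9 CPM at 48 h (-1.05 ± 0.21, adjusted p = 6.39e-05). Sycp3, of its axis, had 1.09, 2.04 and 2.24 CPM at 96 h and 4.01, 3.98 and 6.27 CPM at 48 h (-1.35 ± 0.29, adjusted p = 0.000214), and shares 536 bases with the more highly counted Chpt1 on the opposite strand. Both were lower in every 96 h library than in any 48 h library. Tex15 (-1.31), Meioc (-1.04), Tdrd1 (-1.03), Smc1b (-0.97), Ddx4 (-0.52) and the X-linked Tex11 (-0.49) fell as well. Tdrd1, Smc1b and Tex11 were not called in the RUV values, where 5 genes of the list fell, nor was Tex11 without replicate 2 at 96 h (adjusted p = 0.0583). The summed level of the list was 763 to 811 CPM at 96 h and 540 to 563 CPM at 48 h. Over the 5 times of the course, 8 of the 10 risers had their highest mean at 96 h, and 6 of the 8 fallers their highest at 0 h. Over all genes tested, 1276 of the 2544 that rose were highest at 96 h, and 249 of the 2781 that fell at 0 h.

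Genes of the 2-cell-like state, a rare state of mESC cultures with transcripts of the 2-cell embryo, rose in 9 cases and fell in 0 of 16 tested, at a median of 0.976. Zscan4d, of a cluster of zinc-finger genes active in that state, had 5.60, 7.58 and 7.42 CPM at 96 h and 2.73, 1.43 and 3.48 CPM at 48 h (1.49 ± 0.32, adjusted p = 0.000247), and Zscan4c rose by 1.34. Usp17le, a deubiquitinase gene of the same state, had 3.42, 3.21 and 7.14 CPM at 96 h and 1.09, 0.797 and 1.39 CPM at 48 h (2.10 ± 0.40, adjusted p = 3.91e-05). All these levels were low, and 5 genes were called higher without replicate 2 at 48 h and 5 with a filter at a mean of 1 CPM. Members of the Zscan4 and Usp17l families are near-identical copies, so the value of any 1 of them is uncertain, and 9 of the 25 listed genes present in the file did not pass the filter.

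Markers of trophoblast, the outer lineage that forms the placenta, fell: 16 of 22 tested were lower at 96 h and 1, Eomes, was higher, with a median of -0.915. Gata2, a trophoblast and blood factor (chromosome 6, 88170873 to 88184014), had 82.1, 87.1 and 84.4 CPM at 96 h and 313, 308 and 319 CPM at 48 h. Its libraries agreed closely within each time and differed by -1.89 ± 0.09 between times (adjusted p = 2.15e-22). Plac1, an X-linked placental gene, had 34.7, 42.3 and 31.9 CPM at 96 h and 122, 120.0 and 113 CPM at 48 h (-1.71 ± 0.13, adjusted p = 3.8e-15). Peg10, an imprinted gene of retrotransposon origin that the placenta needs, had 1413, 1095 and 1310.1 CPM at 96 h and 4357, 3273 and 3847 CPM at 48 h (-1.59 ± 0.13, adjusted p = 9.63e-14). Hand1, a factor of trophoblast giant cells and mesoderm, had 65.9, 57 and 64 CPM at 96 h and 161, 140.1 and 135 CPM at 48 h (-1.22 ± 0.12, adjusted p = 8.24e-12). The X-linked homeobox genes Rhox6 and Rhox9, similar copies named after their values were seen, fell by 2.66-fold and 2.69-fold. The summed level of the list, which includes the highly counted Peg10, Krt8 and Krt18, was 5440 to 5557 CPM at 96 h and 11666 to 12313 CPM at 48 h. In bulk RNA, fewer cells of a type and less of its RNA per cell cannot be told apart. In the RUV values 10 of the 22 genes fell, and Plac1 and Hand1 were among those no longer called.

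Markers of extraembryonic endoderm mostly fell as well. In the primitive endoderm list, 14 of 20 genes fell and 1 rose, at a median of -0.945, and in the parietal endoderm list 14 of 19 fell and 0 rose, at -0.738. The lists share several genes. Sox17, an endoderm factor, had 7.0, 9.33 and 7.56 CPM at 96 h and 28.6, 38.3 and 37.6 CPM at 48 h (-2.12 ± 0.18, adjusted p = 8.05e-14). Gata4 had 18, 18.1 and 19.7 CPM at 96 h and 52.9, 45.4 and 49 CPM at 48 h (-1.40 ± 0.15, adjusted p = 9.43e-11), and Pdgfra, the receptor that marks primitive endoderm, changed by -1.57 ± 0.18 (adjusted p = 5.04e-10). Each was lower in every 96 h library than in any 48 h library. Lamb1, a laminin chain of Reichert's membrane, the basement membrane made by parietal endoderm, had 142, 123 and 138 CPM at 96 h and 410.3, 407 and 416 CPM at 48 h (-1.62 ± 0.12, adjusted p = 3.28e-15). Srgn, a secreted proteoglycan, changed by -2.38, P4ha2, which hydroxylates collagen, by -1.22 and the parathyroid hormone receptor Pth1r by -1.38. Summed levels were 3491 to 3944 CPM at 96 h and 5655 to 5891 CPM at 48 h for primitive endoderm, and 4762 to 5332 CPM at 96 h and 7459 to 7749 CPM at 48 h for parietal endoderm. In the RUV values, 7 and 8 genes fell.

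Visceral endoderm markers did not share that direction, with 6 of 15 tested higher and 3 lower, or 6 lower without the libraries that stood apart, which were the 12 h libraries of both knockouts, those of V19 at 48 h and the first 24 h library of 1A wild type. Apoa1, an apolipoprotein, had 95 reads at 96 h and 2 at 48 h over the 3 libraries, a depth-scaled ratio of 37.4 with a 95% counting interval of 10.1 to 313 (adjusted p = 1.43e-08). Apoa2, another apolipoprotein, had 5.29, 9.48 and 5.46 CPM at 96 h and 2.01, 1.59 and 1.86 CPM at 48 h (1.89 ± 0.33, adjusted p = 7.28e-06). Eomes, which visceral endoderm, trophoblast and early mesoderm all use, had 26, 23.3 and 22.4 CPM at 96 h and 14.4, 11.6 and 8.36 CPM at 48 h (1.04 ± 0.16, adjusted p = 6.71e-07). Cdh1 (E-cadherin), which epithelia and mESCs also express, had 569, 538 and 553 CPM at 96 h and 1022, 983 and 928 CPM at 48 h (-0.82 ± 0.08, adjusted p = 1.3e-12). The defining genes Afp, Ttr and Apob did not pass the filter. The summed level was 987 to 1023 CPM at 96 h and 1445 to 1522 CPM at 48 h. It includes Cdh1, at 538 to 569 CPM at 96 h and 928 to 1022 CPM at 48 h, and so mostly follows that gene.

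**Figure D2:**
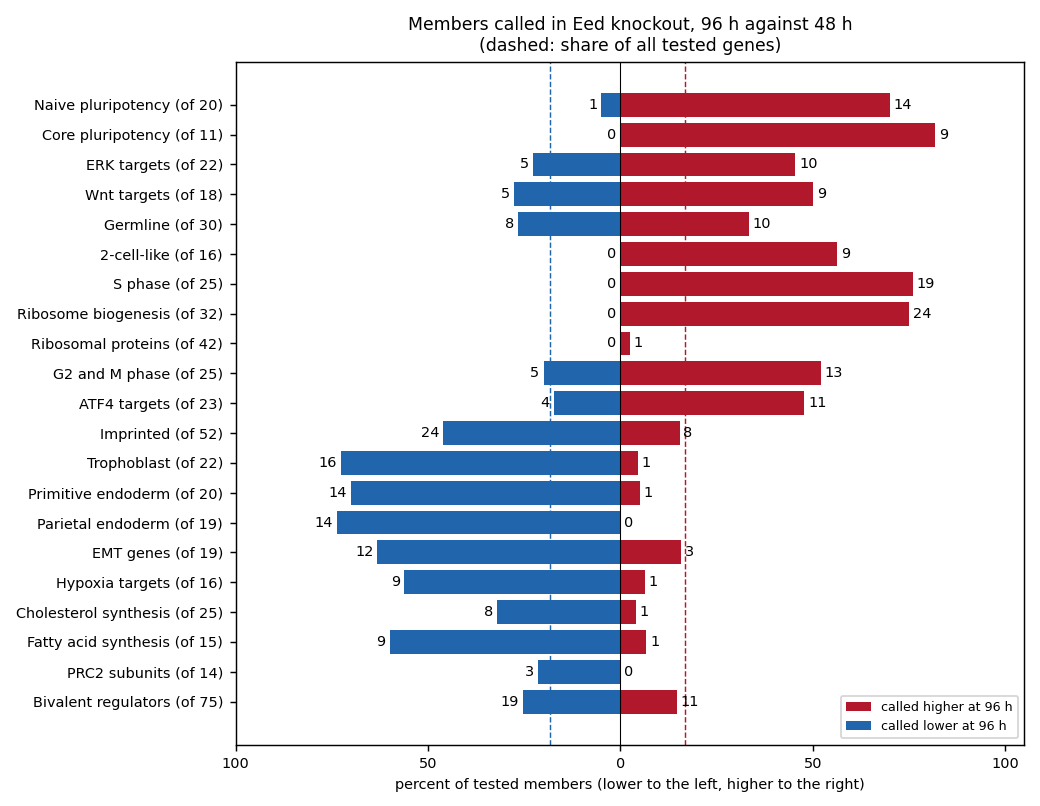
For each gene list, the bars give the percent of its tested genes that were called higher at 96 h than at 48 h (right of 0) and lower (left of 0) in Eed knockout cells, with the percent over all genes tested as dashed lines at 16.9% and 18.4%. Trophoblast (16 of 22 lower) and replication genes (19 of 25 higher) lie at opposite ends.

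Imprinted genes, expressed from the copy of 1 parent, fell in 24 of 52 tested cases and rose in 8, at a median of -0.327. Cdkn1c (p57), a maternally expressed inhibitor of the cell cycle (chromosome 7, 143012076 to 143014802), had 679.9, 686 and 658 CPM at 96 h and 1380.1, 1745 and 1662 CPM at 48 h (-1.24 ± 0.10, adjusted p = 6.16e-14). Its neighbours in the Kcnq1 domain fell further: Phlda2, which restrains placental growth, had 36.2, 48.9 and 38.4 CPM at 96 h and 198, 204 and 199 CPM at 48 h (-2.28 ± 0.14, adjusted p = 5.53e-18). Slc22a18, a transporter gene, had 2.02, 3.50 and 3.50 CPM at 96 h and 14.6, 16.1 and 15.1 CPM at 48 h (-2.33 ± 0.19, adjusted p = 3.1e-14). For all 3 genes the 96 h and 48 h libraries were far apart. The fetal growth factor Igf2 had 845, 793 and 836 CPM at 96 h and 2492, 1934 and 2069.8 CPM at 48 h (-1.39 ± 0.12, adjusted p = 9.49e-14), with 98 bases shared with Igf2os on the opposite strand. H19, Peg3 and Kcnq1ot1 also fell. The risers, of which 5 were called without replicate 2 at 48 h, were Plagl1, Peg12, Mest, Nnat, Rian, Meg3, Jade2 and Dlk1. Plagl1, a zinc-finger factor named after its values were seen, had 13.5, 15.9 and 14.8 CPM at 96 h and 4.19, 2.55 and 3.95 CPM at 48 h (2.07 ± 0.21, adjusted p = 2.64e-11). The list's summed level was 8696 to 9379 CPM at 96 h and 17206 to 19175 CPM at 48 h.

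Developmental regulators that are bivalent in mESCs, the best-known targets of PRC2, changed in 30 of 75 tested cases, 11 higher and 19 lower, or 14.7% and 25.3%, against 16.9% and 18.4% of all genes tested, with a median of 0.0764. The fallers were led by Gata2, Dlx3, Sox17 and Hand1, genes of the extraembryonic lineages above. Dlx3, a homeobox gene of placenta and skin, had 10.4, 10.4 and 9.80 CPM at 96 h and 36.5, 31.9 and 35.5 CPM at 48 h (-1.76 ± 0.13, adjusted p = 8.66e-16). Risers besides Eomes included Olig2, a factor of neural progenitors, with 30.6, 34 and 35.3 CPM at 96 h and 19, 21.7 and 20.4 CPM at 48 h (0.71 ± 0.15, adjusted p = 0.000214), and Mixl1, Neurog1 and Sox1. Of the list 4 fell in the RUV values. Of 29 Hox genes tested, 6 rose and 1 fell, or 20.7% and 3.45%, beside the same shares of all genes tested. In the RUV values 3 Hox genes rose and 0 fell. Hoxc12 had 8.55, 7.15 and 8.12 CPM at 96 h and 4.74, 2.71 and 2.55 CPM at 48 h (1.24 ± 0.28, adjusted p = 0.000507), and Hoxa11 changed by 1.18 ± 0.28 (adjusted p = 0.00101). Hoxa11 shares 568 bases with the antisense Hoxa11os. Hoxa7 (0.83) and the faller Hoxb8 (-1.52) were not called in the RUV values. Without replicate 3 at 96 h, 3 Hox genes rose and Hoxa7 was not called (adjusted p = 0.176), and without replicate 1 at 48 h Hoxb8 was not called (adjusted p = 0.075).

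Of the embryonic germ-layer markers tested, 18.2% rose and 18.2% fell in mesendoderm, and 27.3% rose and 9.09% fell in neuroectoderm. Over all genes tested the shares were 16.9% and 18.4%. In mesendoderm 2 of 11 tested rose and 2 fell: Mixl1, of the primitive streak, had 1.87, 2.04 and 2.38 CPM at 96 h and 0.911, 0.159 and 0 CPM at 48 h, and Foxa2 had 2.18, 5.40 and 2.94 CPM at 96 h and 8.02, 9.56 and 11.4 CPM at 48 h. Adjusted p-values were 0.000392 and 6.7e-06, and the fall of Foxa2, like that of the BMP antagonist Nog (-0.88), was not called in the RUV values. In neuroectoderm 3 of 11 rose, among them Sox1 (0.75) and Pou3f2 (0.90), and Nes fell (-0.40). Nog (adjusted p = 0.0981), Sox1 (0.0584) and Pou3f2 (0.160) were not called without replicate 2 at 48 h, nor was Nes without replicate 1 at 96 h (0.0644). Pou3f2 (adjusted p = 0.132) and Nes (0.352) were not called in the RUV values, and in DESeq2 Pou3f2 was not (0.0571). Summed levels were 59.9 to 67.2 CPM at 96 h and 49.6 to 52.5 CPM at 48 h for mesendoderm, and 239 to 254 CPM at 96 h and 228 to 261 CPM at 48 h for neuroectoderm. Of 15 tested fibroblast genes 6 rose and 0 fell, with a summed level of 1075 to 1362 CPM at 96 h and 790.2 to 1073 CPM at 48 h. Vim, encoding the intermediate filament vimentin, had 113, 116 and 117 CPM at 96 h and 59.6, 57.1 and 55.5 CPM at 48 h (1.00 ± 0.10, adjusted p = 5.06e-12). Acta2, encoding smooth-muscle actin, rose by 0.77, Postn by 0.91 and Col6a3 by 1.39. The last 2 were not called without replicate 1 at 96 h (adjusted p = 0.0558 and 0.124), and 3 fibroblast genes rose without replicate 1 at 48 h and 3 in DESeq2, where Postn was not called (adjusted p = 0.0862). The fibroblast markers Col3a1, Dcn, Lum, Twist2 and S100a4 did not pass the filter, and the part of such cells in other results was not tested.

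Keratins of simple epithelia fell while others rose. Krt8 and Krt18, which pair in trophectoderm and simple epithelia, had 1166, 1235 and 1201 CPM and 1265, 1308 and 1234 CPM at 96 h, against 2199, 2396 and 2053 CPM and 2395, 2617 and 2323 CPM at 48 h. Both fell without overlap, at -0.88 ± 0.11 (adjusted p = 5.27e-09) and -0.95 ± 0.11 (adjusted p = 2.2e-09). Krt19 and Krt7 fell too, by 1.73-fold and 1.45-fold, and were named after their values were seen. Neither was called in the RUV values, where Krt19 had -0.25 (adjusted p = 0.54) and Krt7 changed sign, at 0.07 (adjusted p = 0.892). Krt14, of basal epithelium, had 49.6, 46.8 and 49.3 CPM at 96 h and 11.3, 12 and 9.52 CPM at 48 h (2.14 ± 0.18, adjusted p = 1.86e-13), and Krt42 13.8, 15 and 16 CPM at 96 h and 3.83, 3.67 and 4.41 CPM at 48 h (1.92 ± 0.18, adjusted p = 4.34e-12). The median of the 8 keratins was -0.203 in these counts and 0.201 in the RUV values.

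Among 19 genes of the epithelial to mesenchymal transition, 12 fell and 3 rose. The fallers were mostly epithelial. Esrp1, an epithelial splicing factor, had 16.2, 13 and 14.8 CPM at 96 h and 43.4, 43.7 and 41.3 CPM at 48 h (-1.55 ± 0.10, adjusted p = 8.05e-18), and the tight junction gene Cldn7 53.6, 64.8 and 57.8 CPM at 96 h and 148, 187 and 165 CPM at 48 h (-1.51 ± 0.13, adjusted p = 3.93e-13). Cldn6 fell by 2.30-fold, and Epcam, Cldn3, Cldn4 and Ocln also fell. Genes of the mesenchymal side moved both ways: Vim, Zeb1 (0.95) and Twist1 (0.58) rose, Zeb2 (-1.07) fell, and Snai1 and Snai2 were not called. Zeb1, Twist1 and Zeb2 were named after their values were seen. Twist1 and Zeb2 were not called in the RUV values (adjusted p = 0.0803 and 0.364), nor without any of several single libraries, up to an adjusted p of 0.212 for Twist1 and 0.120 for Zeb2 without replicate 1 at 48 h. Twist1 was also not called in DESeq2 (adjusted p = 0.0694), with no filter on low counts (0.099), with the replicate block (0.0545) or with the trend over exon length removed (0.0619). Of 22 genes tied to actin and YAP, 5 rose and 7 fell at a median of -0.157, against 1 fall and a median of 0.180 in the RUV values. Myl9, a myosin light chain, had 31.6, 33.7 and 32.3 CPM at 96 h and 12.8, 14.3 and 11.1 CPM at 48 h (1.34 ± 0.17, adjusted p = 1.49e-08), skeletal actin Acta1 rose by 1.16, and S100a6 fell by 2.04-fold.

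Falls were more frequent on the X chromosome than elsewhere. Of 544 X-linked genes tested, 151 were lower at 96 h (27.8%) and 82 higher (15.1%), against 18.1% lower and 17.0% higher of 14511 genes on chromosomes 1 to 19. Falls of at least 2-fold made up 9.01% on X (49 genes), against 3.00% on the autosomes (436 genes) and 4.84% on chromosome 19, the next highest. Medians were -0.134 on X and 0.00642 on the autosomes, and the difference between chromosomes is a description with no test. The X share was higher within each of 5 classes of exon length, from 9.62% against 4.13% in the shortest to 31.0% against 24.7% in the longest. In the RUV values, 16.9% of X-linked and 8.41% of autosomal genes fell. In the same interval 14.9% of X-linked genes fell and 7.9% rose in Ezh2 knockout cells, against 11.8% and 12.4% on the autosomes. Medians there were -0.103 on X and 0.00073 on the autosomes, close to those in Eed knockout cells. Falls of at least 2-fold made up 3.86% and 3.19%. In 1A wild type 16.4% of X-linked genes fell and 14.2% rose, against 15.2% and 16.3% on the autosomes. Medians were 0.000375 and 0.0217 in wild type, and falls of at least 2-fold made up 4.41% and 2.85%. Rlim, the X-linked ubiquitin ligase that activates Xist, named after its values were seen, had 114, 113 and 106 CPM at 96 h and 269, 242 and 279.5 CPM at 48 h (-1.25 ± 0.11, adjusted p = 3.93e-13). The karyotype of the line and the allele each read came from were not analysed here.

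**Figure D3:**
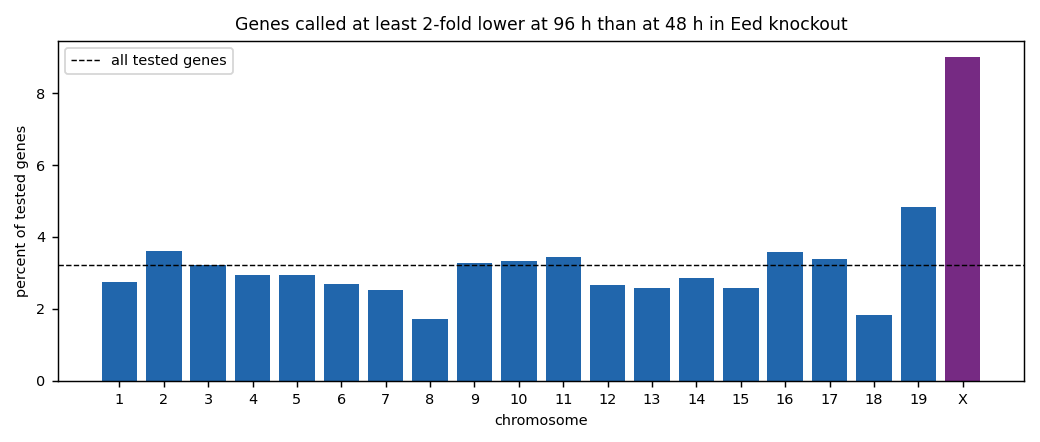
Percent of the tested genes of each chromosome that were at least 2-fold lower at 96 h than at 48 h, and called, in Eed knockout cells, with the share over all genes tested (3.22%) as a dashed line. The X chromosome stands at 9.01% and the autosomes at 1.72 to 4.84%.

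Genes of DNA replication and growth rose together. In the S phase list 19 of 25 rose and 0 fell, at a median of 0.479. Mcm5, of the replicative helicase, whose promoter is shown above, had 577, 584 and 592 CPM at 96 h and 327, 335 and 294 CPM at 48 h (0.87 ± 0.07, adjusted p = 1.78e-15). Mcm3, of the same ring, had 428, 444 and 429 CPM at 96 h and 258, 278 and 277 CPM at 48 h (0.68 ± 0.06, adjusted p = 2.03e-13). Both were higher in every 96 h library than in any 48 h library, as was Mcm2 (0.83). Ung, which removes uracil from DNA, rose by 0.79 and shares 247 bases with Alkbh2 on the opposite strand. Of 20 genes of this list with a promoter sequence, 16 held TCCCGC or GCGGGA. They were 11 of the 15 that rose and 5 of the 5 that were not called. Of 32 genes of ribosome biogenesis and growth 24 rose and 0 fell, at a median of 0.398. The spermidine synthase gene Srm had 222, 249 and 238 CPM at 96 h and 129, 148 and 135 CPM at 48 h (0.78 ± 0.08, adjusted p = 7.21e-11), and the nucleolar factors Nle1, Nolc1 and Bop1 rose by 0.65, 0.59 and 0.50. Many genes of this list are known targets of Myc, whose own level fell. The 42 ribosomal protein genes tested gave 1 call, Rpl7a (0.45 ± 0.14, adjusted p = 0.0135), at a list median of 0.197. Without replicate 3 at 48 h that call was lost too (adjusted p = 0.0909). The number of calls depended on the fit: 23 of the 42 rose where the 2 groups were fitted alone, 13 with no filter on low counts, 10 without the libraries that stood apart and 6 with the trend over exon length removed.

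Of 25 mitotic genes 13 rose and 5 fell, or 52% and 20%, against 16.9% and 18.4% of all genes tested. Plk1, a mitotic kinase, had 222, 242 and 237 CPM at 96 h and 161, 144 and 136 CPM at 48 h (0.67 ± 0.08, adjusted p = 5.64e-09). Aurka, another mitotic kinase, rose by 0.65 and cyclin B1 (Ccnb1) by 0.50. Cenpe, a very long kinetochore motor gene, had 42.9, 36 and 32.9 CPM at 96 h and 99.7, 73 and 102 CPM at 48 h (-1.29 ± 0.18, adjusted p = 1.14e-07), and the proliferation marker Mki67, named after its values were seen, changed by -0.75 ± 0.22 (adjusted p = 0.00687). Without replicate 1 at 48 h, Mki67 was not called (adjusted p = 0.0705) and 3 mitotic genes fell, as many as with no filter on low counts. Of 18 genes of G1 cyclins and Rb, 9 rose and 3 fell: Ccnd2 had 30.2, 25.1 and 25.9 CPM at 96 h and 55.6, 53.9 and 58.5 CPM at 48 h (-1.05 ± 0.11, adjusted p = 1.57e-10), opposite to Ccnd1, and Cdk6 rose by 0.78. Of 7 CDK inhibitors, Cdkn1c and Cdkn1b (-0.25) fell, the second not called in the RUV values nor without replicate 1 at 96 h (adjusted p = 0.172). Of 21 genes of the p53 pathway 4 rose and 8 fell (19% and 38.1%, against 16.9% and 18.4% of all genes tested). Trp53 itself had 348, 376 and 385 CPM at 96 h and 226, 211 and 204 CPM at 48 h (0.79 ± 0.07, adjusted p = 2.15e-12). Its targets moved both ways: Btg2 (-0.80), Ccng1 (-0.53) and Perp (-0.82) fell, and Gtse1, Aen and Gdf15 rose. Cdkn1a, Bax and Bbc3 were among those not called. In the RUV values 5 genes of the p53 list fell.

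Metabolic lists mostly held more falls than rises. Slc2a1, the glucose transporter GLUT1, had 610.0, 597 and 584 CPM at 96 h and 1422, 1607 and 1559 CPM at 48 h, with no overlap between the times (-1.36 ± 0.08, adjusted p = 2.49e-19). In glycolysis 7 of 19 fell and 4 rose: Pdk1, which restrains pyruvate oxidation, changed by -1.03 ± 0.14 (adjusted p = 4.16e-08), the lactate exporter Slc16a3 by -0.95, and Pkm, pyruvate kinase, by 0.34 ± 0.06 (adjusted p = 1.7e-05). Of 16 hypoxia targets 9 fell and 1 rose. P4ha1, a collagen prolyl hydroxylase, had 49.8, 47.8 and 54 CPM at 96 h and 88.8, 106 and 99.6 CPM at 48 h (-0.96 ± 0.09, adjusted p = 5.36e-12), and Bnip3, of mitophagy, fell by 2.22-fold. In cholesterol synthesis 8 of 25 fell and 1 rose, with Mvk (mevalonate kinase) at -0.64 and Hmgcs1 at -0.40 log2 units; 5 fell in the RUV values. In fatty acid synthesis 9 of 15 fell and 1 rose, with Acsl3 at -0.74, the X-linked Acsl4 at -0.92 and malic enzyme Me1 at -0.64. Of 26 nuclear genes of oxidative phosphorylation 3 rose and 0 fell, by no more than 0.23 log2 units (Atp5b), and without replicate 1 at 48 h 0 of them were called (adjusted p = 0.0503 for Atp5b). With the trend over exon length removed, 4 of them fell.

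Stress lists were mixed apart from targets of Atf4, the factor that responds to amino acid shortage, of which 11 of 23 rose and 4 fell. Psat1, of serine synthesis, had 465, 467 and 486 CPM at 96 h and 276, 273 and 236 CPM at 48 h (0.85 ± 0.07, adjusted p = 4.55e-15). Mthfd2, of mitochondrial folate metabolism, had 107, 113 and 118 CPM at 96 h and 59.1, 63.4 and 53.2 CPM at 48 h (0.94 ± 0.09, adjusted p = 6.47e-12), and Shmt2, of the same pathway, rose by 0.64. These were again apart in all libraries. Interferon and viral sensing genes gave 6 rises and 7 falls among 31, which is 19.4% and 22.6%, against 16.9% and 18.4% of all genes tested. Oas2 changed by 1.80, Ifitm3 by 0.87, Rsad2 by -1.01 and Eif2ak2 by -0.58. The fall of Rsad2 was not called in the RUV values. Without replicate 1 at 48 h, 11 genes of the interferon list fell, and in the RUV values 1 did. Chaperones gave 5 rises and 3 falls among 17 (29.4% and 17.6%), with Pdia4 at 0.43, Hspa8 at 0.53 and Hspa1b at -0.62. The last was not called in the RUV values, where 1 chaperone fell. In apoptosis and autophagy 2 of 19 rose (Bid at 0.42, Mcl1 at 0.26) and 3 fell (Ctsd at -0.45, Sqstm1 at -0.24 and Pmaip1), of which Sqstm1 was not called in the RUV values nor without replicate 2 at 48 h (adjusted p = 0.0872), and Mcl1 not without replicate 1 at 48 h (adjusted p = 0.208). Between 1 gene (RUV values) and 7 genes (without the libraries that stood apart) of this list fell over the other fits.

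The 48 h time was an extreme of the course for many of these genes. Of the 2781 genes that fell, 1826 (65.7%) had their highest of 5 mean levels at 48 h, and of the 2544 that rose, 1258 (49.4%) had their lowest there, against 23.4% and 19.7% of all genes tested. Since 48 h and 96 h were used to choose these genes, the shares are a description. Gata2 averaged 31.2 CPM at 0 h, 98.8 at 12 h, 240.2 at 24 h, 314 at 48 h and 84.5 at 96 h. Cdkn1c averaged 125, 260.5, 477, 1596 and 675 CPM at the same times. Both thus peaked at 48 h, as did 13 of the 16 trophoblast genes and 18 of the 24 imprinted genes that fell. Of the 14 primitive endoderm genes that fell, 11 were highest at 0 h, against 249 of all 2781 genes that fell. Etv4 averaged 172, 11.2, 4.31, 4.56 and 42 CPM, so that its 96 h level was a partial return towards 0 h. The highest mean was at 0 h in 9 of the 10 ERK targets that rose and in 8 of the 9 shared pluripotency genes that rose. Of all 2544 genes that rose, 876 were highest at 0 h and 1276 at 96 h. Nanog averaged 438, 669, 567, 539 and 939 CPM and was highest at 96 h, as were 10 of the 14 naive genes that rose.

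**Figure D4:**
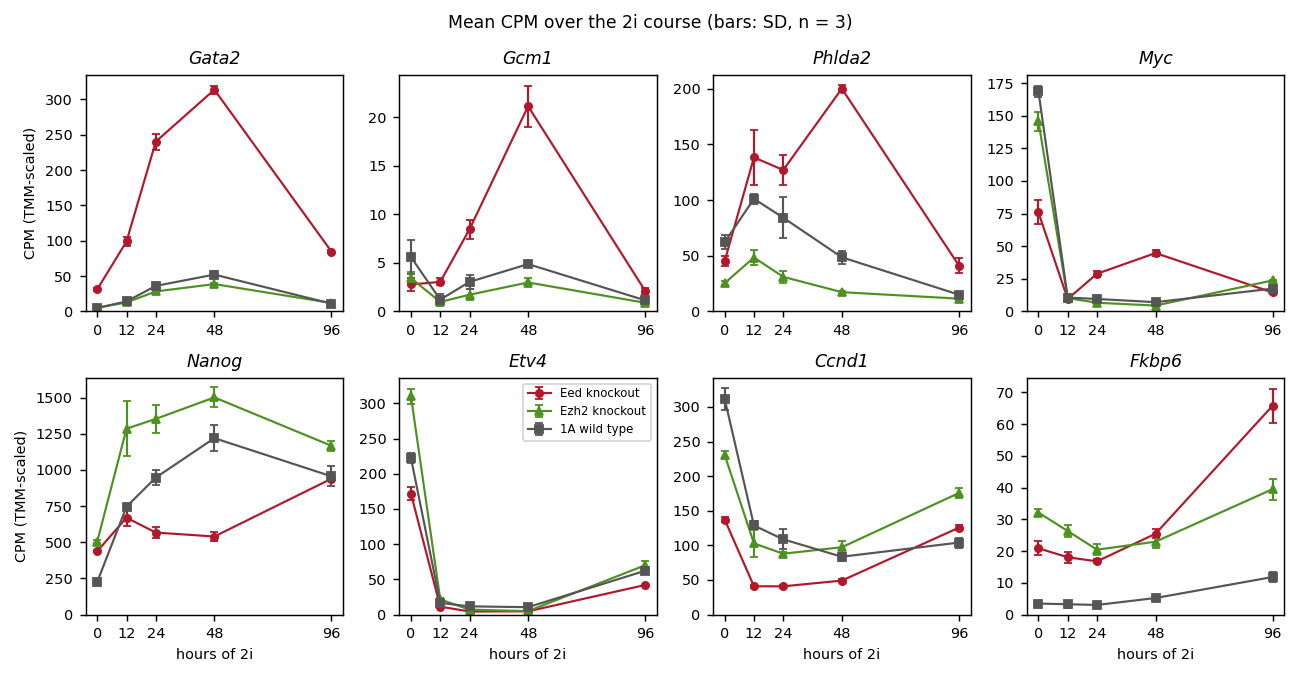
Mean CPM (points joined by lines) with its SD (bars, n = 3) at 0, 12, 24, 48 and 96 h of 2i for 8 genes, in Eed knockout, Ezh2 knockout and 1A wild-type cells. In Eed knockout cells Gata2 peaks at 48 h (314 CPM) and Etv4 is lowest at 24 h and 48 h (4.31 and 4.56 CPM).

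Over the same interval fewer genes were called in Ezh2 knockout cells and in 1A wild type. In Ezh2 knockout cells 3649 genes changed (24.2%), 1849 higher (12.3%) and 1800 lower (11.9%), with 2.51% higher and 3.22% lower by at least 2-fold. In 1A wild type 4751 genes changed (31.5%), 2446 higher (16.2%) and 2305 lower (15.3%), with 3.49% and 2.92% at least 2-fold higher and lower. The difference between the Eed knockout and wild-type changes was tested as an interaction and was called for 4045 genes (26.8%), 2019 with a more positive change in the knockout (13.4%) and 2026 with a more negative one (13.4%), of which 3.35% and 4.38% of all genes differed by at least 2-fold. Against Ezh2 knockout cells 2021 genes were called (13.4%), 1053 more positive (6.98%) and 968 more negative (6.42%) in Eed knockout cells, with 2.49% and 1.72% by at least 2-fold. Both differences use the same Eed knockout libraries and are not independent of each other.

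Pluripotency genes were a main point of difference. Of the 20 naive genes, 13 had a more positive change in Eed knockout than in wild-type cells and 0 a more negative one, and 12 against 0 did so relative to Ezh2 knockout cells. Nanog, with the Eed knockout values given above, had 1198, 1129.9 and 1171 CPM at 96 h and 1576, 1485 and 1441 CPM at 48 h in Ezh2 knockout cells, and 913, 919 and 1034 CPM at 96 h and 1227, 1303 and 1127 CPM at 48 h in wild type. It fell in both of these lines while it rose in Eed knockout cells, a difference of 1.16 ± 0.12 (adjusted p = 2e-10) and 1.15 ± 0.12 (adjusted p = 1.97e-10). At 96 h the 3 lines lay closer together than at 48 h. Sox2 likewise rose in Eed knockout cells by 0.30 and had 514, 523 and 521 CPM at 96 h and 641, 616 and 645 CPM at 48 h in Ezh2 knockout cells, a difference of 0.59 ± 0.08 (adjusted p = 2.46e-07). Lin28a differed from wild type by 1.13 ± 0.12 (adjusted p = 2.04e-09) and from Ezh2 knockout cells by 0.12 ± 0.12 (adjusted p = 0.576), the second being no call.

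Myc had the smallest adjusted p for a difference from Ezh2 knockout cells among the genes named here. It had 23.6, 23.5 and 24 CPM at 96 h and 4.39, 4.13 and 4.78 CPM at 48 h in Ezh2 knockout cells, and 16.1, 16.4 and 19.8 CPM at 96 h and 8.40, 6.51 and 6.24 CPM at 48 h in wild type. It thus rose in both lines and fell in Eed knockout cells, a difference of -4.05 ± 0.19 (adjusted p = 7.44e-23) and -2.90 ± 0.19 (adjusted p = 2.53e-16). Fst had the same opposite directions, with 28.4, 24.1 and 24.6 CPM at 96 h and 9.33, 11.8 and 11.9 CPM at 48 h in Ezh2 knockout cells (difference -2.20 ± 0.23, adjusted p = 9.14e-10) and 31.8, 31.8 and 32.3 CPM at 96 h and 9.25, 9.28 and 9.98 CPM at 48 h in wild type (difference -2.75 ± 0.24, adjusted p = 4.36e-12). Other genes of the Nodal pathway differed the other way: Lefty1, named after its values were seen, by 2.42 ± 0.28 from wild type and Gdf3 by 1.24 ± 0.15. Rbbp7 fell in wild type (-0.33) and rose in Ezh2 knockout cells (0.21), so that the fall in Eed knockout cells differed by -1.08 ± 0.11 from Ezh2 knockout cells (adjusted p = 1.66e-10).

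Several of the largest differences lay in genes that were low in the other lines. Krt16 stayed under 0.6 CPM at 96 h and under 0.8 CPM at 48 h in Ezh2 knockout cells, and under 0.4 CPM at 96 h and 0.9 CPM at 48 h in wild type. Its difference from wild type was 3.79 ± 1.05 (adjusted p = 0.00528), but was not called (adjusted p = 0.0843) without replicate 1 of wild type at 48 h. Adgrf5, an adhesion receptor gene, had 39, 31.2 and 33.2 CPM at 96 h and 14.9, 9.40 and 11.1 CPM at 48 h in Eed knockout cells, against 0.496, 0.926 and 0.546 CPM at 96 h and 1.28, 1.16 and 1.34 CPM at 48 h in Ezh2 knockout cells (difference 2.50 ± 0.56, adjusted p = 0.00117). Other differences came from a change in the other lines. Mobp, a myelin gene, had 1.40, 1.31 and 0.840 CPM at 96 h and 0.365, 0.319 and 0.464 CPM at 48 h in Eed knockout cells, against 1.27, 2.10 and 2.39 CPM at 96 h and 14.4, 17.1 and 17.5 CPM at 48 h in wild type (difference 4.68 ± 0.62, adjusted p = 1.43e-07). It was low in Eed knockout cells throughout and fell in wild type. Stra8, a gene of meiotic entry, had 5.75, 4.81 and 6.44 CPM at 96 h and 2.73, 3.67 and 2.79 CPM at 48 h in Eed knockout cells, against 7.27, 6.29 and 5.68 CPM at 96 h and 22.9, 21.1 and 21 CPM at 48 h in Ezh2 knockout cells (difference 2.63 ± 0.32, adjusted p = 3.09e-08). Pdlim4 fell in all 3 lines, least in Eed knockout cells, where the fall was not called in the RUV values (adjusted p = 0.323).

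By list, germline genes separated the 2 knockouts. In Ezh2 knockout cells 2 of the 30 rose and 16 fell (median -0.421), and in wild type 14 rose and 2 fell (median 0.517). Of these genes 10 had a more positive change in Eed than in Ezh2 knockout cells and 1 a more negative one, whereas 1 was more positive and 7 more negative than in wild type. Dazl had 13.2, 19.3 and 16.5 CPM at 96 h and 32, 23 and 22.7 CPM at 48 h in Ezh2 knockout cells, a fall where Eed knockout cells rose (difference 1.55 ± 0.22, adjusted p = 7.01e-07). Trophoblast genes fell in all lines, 16 of 22 in Eed knockout, 12 in Ezh2 knockout and 15 in wild-type cells, from different levels. Gata2 had 11.9, 12.8 and 10.9 CPM at 96 h and 39.7, 37.5 and 38.6 CPM at 48 h in Ezh2 knockout cells, and 11.8, 11.6 and 9.18 CPM at 96 h and 48.8, 49.8 and 57.4 CPM at 48 h in wild type. Its level was highest in Eed knockout cells at both times, while the change did not differ at the threshold (difference -0.18 ± 0.15, adjusted p = 0.466, and 0.35 ± 0.15, adjusted p = 0.0775). Primitive endoderm genes fell in 10 of 20 cases in Ezh2 knockout cells and 3 in wild type, and 8 had a more negative change in Eed knockout than in wild-type cells.

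Growth genes differed chiefly from wild type. Of the 25 S phase genes 19 were more positive in Eed knockout than in wild-type cells and 1 more negative, and 10 against 1 relative to Ezh2 knockout cells. Mcm5 rose in both, by 0.27 in Ezh2 knockout and 0.27 in wild-type cells, with a difference of 0.60 ± 0.09 and 0.60 ± 0.09 (adjusted p = 3.19e-06 and 1.99e-06). All 42 ribosomal protein genes fell in wild type, at a median of -0.714, and 39 of them differed from wild type in Eed knockout cells. Of 23 Atf4 targets 14 fell in wild type, and 12 were more positive in Eed knockout cells.

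The changes moved with exon length in these libraries, and in opposite ways in wild type. In Eed knockout cells the median change was 0.16 log2 units for 1027 genes with under 1 kb of exons and -0.141 for 2253 genes with over 8 kb, against 0.0542 and -0.0902 in Ezh2 knockout cells and -0.387 and 0.243 in wild type. Across all 15083 genes the Spearman correlation of the change with exon length was -0.185 in Eed knockout, -0.151 in Ezh2 knockout and 0.310 in wild-type cells, and -0.377 for the difference from wild type. These are descriptions across genes, which are not independent. Per library, the median of the longest genes minus that of the shortest was 0.36, 0.0735 and 0.244 at 96 h and 0.641, 0.319 and 0.572 at 48 h in Eed knockout cells. In wild type it was 0.243, 0.134 and 0.0221 at 96 h and -0.477, -0.498 and -0.4 at 48 h. The short ribosomal protein genes and long genes such as Cenpe lie at the ends of this range, and its part in the differences from wild type was not tested. With the trend over length removed, an alternative chosen after seeing the data, 5805 genes changed in Eed knockout cells and 3716 differed from wild type, of which 2949 were among the 4045 called without that step.

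**Figure D5:**
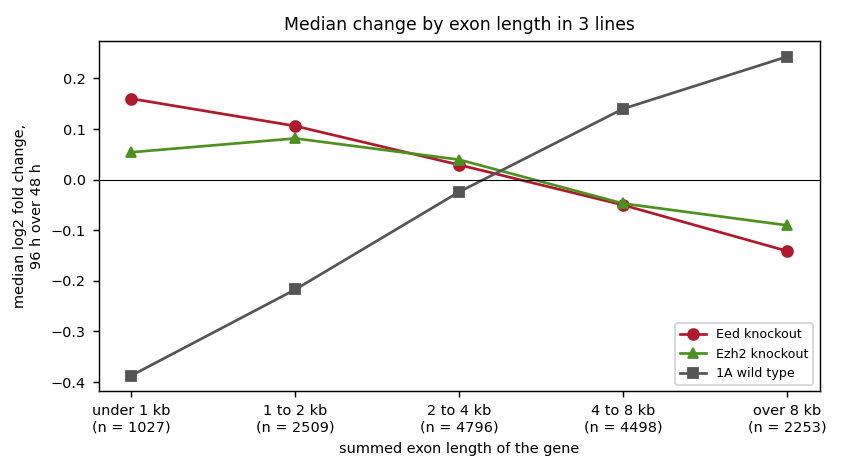
Median log2 change from 48 h to 96 h over all genes tested in 5 classes of exon length, from under 1 kb to over 8 kb, for Eed knockout, Ezh2 knockout and 1A wild-type cells. The line of Eed knockout cells runs from 0.16 down to -0.141 and that of wild type from -0.387 up to 0.243.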

How the data were processed

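The deposited table of raw counts holds reads per gene for 60 libraries of polyadenylated RNA, made by the authors with STAR 2.7.10b and featureCounts 2.0.3 on GRCm39, per the submitters' processing notes. A deposited table of scores holds counts normalized by the authors for unwanted variation (RUV) and rounded, per its name; its settings are not stated. It served as an alternative, on the scale log2(value + 1). A deposited table of transformed counts was not used here. Libraries were grouped by their labels, and 3 per group bound the precision.

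Of 50559 genes, the 15083 passing filterByExpr by group (minimum count 10, minimum total 15) were tested with edgeR 4.0.16's quasi-likelihood test (R 4.3.3), scaled by TMM, in a model of all 60 libraries and 20 groups with 40 residual degrees of freedom. Adjusted p-values are Benjamini-Hochberg values over all genes tested, and those without another name come from this test. The comparisons were Eed knockout at 96 h against 48 h and its differences from the same interval in Ezh2 knockout and 1A wild-type cells (interaction terms), which share the Eed knockout libraries. For the first comparison, data on 15083 genes were also made with known changes, placed only in genes with a mean count of at least 10. Each gene otherwise had the same mean in all groups. The test recovered 61.2% of 67 changes of 1.5-fold, 91.0% of 67 of 2-fold and 100% of 66 of 4-fold, and called 9 unchanged genes. These rates do not cover genes with lower counts. Genes were named by rule: the targeted complex, the 10 largest called changes per direction with a mean of at least 5 CPM in the higher group and no overlap, up to 4 called members of each of 42 lists by adjusted p, and the 6 largest called differences per direction. Exceptions are marked in the text. Some genes that the rule names are not reported here. Members and lists were chosen with earlier results of these data known. Gene coordinates are those of the count table, and promoter sequences are from RefSeq on GRCm38.p6, matched by symbol.

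The alternatives were RLE factors, 2 other filters, the replicate number as a block, a fit of the compared groups only, DESeq2 1.42.0, limma 3.58.1 on the RUV scores, and each replicate left out. Added after seeing the data were a fit with the trend over exon length removed and one without libraries that stood apart (12 h of the 2 knockouts, 48 h of V19 and the first replicate of 1A wild type at 24 h). That last fit kept replicate 3 of 1A wild type at 48 h, which had the fewest reads. Its root mean square deviation from its group was 0.343 log2 units, against a median of 0.226. It was left out only where each replicate was left out singly.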

Additional observations from a re-analysis of the deposited data

Results flagged for a closer look

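Differences between the 48 to 96 h change of Eed knockout cells and that of another line, each tested as an interaction in edgeR, are given here because the same interval behaved differently between lines. Against Ezh2 knockout cells 2021 genes were called and against 1A wild type 4045. Groups of 3 are too small to test single libraries for standing apart.

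Among pluripotency genes, the difference from wild type was 1.15 log2 units for Nanog, 0.68 for Esrrb, 0.54 for Sox2 and 1.13 for Lin28a. Against Ezh2 knockout cells it was 1.16 for Nanog, 0.83 for Esrrb and 0.59 for Sox2. In all of these the change, not the level, was more positive in Eed knockout cells. Esrrb, Sox2, Lefty1 and Plagl1 were chosen for naming after their values were seen.

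In signalling, the difference from wild type was -2.90 for Myc, -2.75 for Fst, -2.04 for Ascl2, 2.03 for Cdx1, 2.42 for Lefty1 and 1.24 for Gdf3. Against Ezh2 knockout cells it was -4.05 for Myc, -2.20 for Fst, -2.45 for Ascl2, 0.88 for Cdx1, 1.08 for Lefty1 and 0.85 for Gdf3. The direction of each was the same against both lines, which is no independent repeat because both use the same Eed knockout libraries.

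Other named genes were called too. Trp53 differed by 0.94 from wild type and by 0.89 from Ezh2 knockout cells, Plagl1 by 1.79 and 2.11, Rbbp7 by -0.54 and -1.08, and Phlda2 by -1.67 from Ezh2 knockout cells.

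By size, the differences from wild type included 4.68 for Mobp, 3.79 for Krt16, 3.75 for Pdlim4, a LIM-domain protein of actin fibres, 3.38 for Gli1, the transcription factor of Hedgehog signalling, and 3.28 for Krt42. In the other direction they were -3.30 for Klb, the coreceptor of endocrine FGFs, -3.22 for Parp10, an ADP-ribosyltransferase, and -2.94 for Usp51. Where 1 of the 4 groups held at most 3 reads, the size is not given: the adjusted p was 0.0016 for S100a14, 0.0454 for Xlr4a, 0.000753 for Hpcal4 and 0.0372 for Ntn4. The calls of Xlr4a and Ntn4 were lost without any of several single libraries, up to an adjusted p of 0.160 for Xlr4a without replicate 1 of wild type at 96 h and 0.156 for Ntn4 without replicate 1 of wild type at 48 h. In the RUV values neither was called (adjusted p = 0.7 for Xlr4a and 0.235 for Ntn4), nor was either with no filter on low counts (0.0747 and 0.0658), and Ntn4 was not in DESeq2 (0.0653).

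From Ezh2 knockout cells the largest differences were 3.38 for Mobp, 3.03 for Pdlim4, 2.95 for Krt16, 2.63 for Stra8 and 2.50 for Adgrf5, and -3.05 for Dgkk, an X-linked diacylglycerol kinase gene. With at most 3 reads in 1 group, the adjusted p was 0.00453 for Drd4, a dopamine receptor gene, 0.0312 for Ifit1, an interferon-induced gene, 0.0228 for Olr1, 0.0227 for Metrnl and 0.00325 for Cebpd. Leaving out single Ezh2 knockout libraries ended the calls of Krt16 (adjusted p = 0.291 without replicate 3 at 48 h), Ifit1 (0.121 without replicate 1 at 96 h), Olr1 (0.0827 without replicate 2 at 48 h) and Metrnl (0.118 without replicate 2 at 48 h).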

How the results depend on the processing

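Over the other normalizations, filters, tools and sets of libraries tried, 0 genes called in a comparison were called with the other sign in another fit, single libraries left out included, but the balance of rises and falls did move. The largest shift came from the RUV values, in which 1329 genes fell between 48 h and 96 h in Eed knockout cells, 1332 were more negative than in wild type and 523 more negative than in Ezh2 knockout cells; rises made up 64.5% against 49.9% of the calls for the difference from wild type and 71.1% against 52.1% for that from Ezh2 knockout cells. Krt7 turned to 0.06784 there (adjusted p = 0.892). The cause was not tested. For the difference from Ezh2 knockout cells, 1676 genes were more positive with the groups fitted alone and 625 more negative with no filter on low counts. Leaving out 1 replicate gave 4388 to 4648 calls for the Eed knockout (1989 to 2168 higher, 2287 to 2484 lower), 3211 to 3985 for the difference from wild type (1588 to 2001 and 1623 to 1984) and 1598 to 1964 for that from Ezh2 knockout cells (839 to 1023 and 759 to 941). Whether replicate numbers pair the samples cannot be settled with 3 libraries per group. In Eed knockout cells the deviations of same-numbered 96 h and 48 h libraries had correlations of 0.0485, 0.135 and -0.0283. Those of different numbers had -0.124 to 0.0815. The fit with the replicate block called 5297, 4017 and 2005 genes. With the length trend removed the counts were 5805, 3716 and 2714, and without the libraries that stood apart 6302, 5149 and 2944. List medians of neuroectoderm (0.273), CDK inhibitors (0.0842), glycolysis (0.0234), interferon (0.123) and apoptosis genes (0.0116) turned positive in the RUV values. At this depth, genes with few reads at 48 h have wide limits.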
